A study of Mus musculus with 11 samples.

Results

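The genes described here are 10 regulators of the G1 phase of the cell cycle, taken from the 53801 genes quantified in each library. They are the D-type cyclins Ccnd1, Ccnd2 and Ccnd3, the E-type cyclins Ccne1 and Ccne2, the kinases Cdk4 and Cdk6, and the CDK inhibitors Cdkn1b, Cdkn2a and Cdkn2c. They were chosen by name as members of this pathway, their symbols were matched to gene identifiers through the GENCODE annotation, and all 10 had expected counts above 0 in all 11 libraries and passed the filter on low counts in every comparison.

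RNA was taken from primary neural stem cells (NSCs) of the embryonic mouse hippocampus after 7 days with 1 µM 4HBP or with its EtOH vehicle. Proliferation medium was DMEM/F12 with B27 at 1%, glutaMAX, antibiotics and the growth factors EGF and bFGF at 20 ng/ml each, with 3 libraries under 4HBP and 3 under vehicle. Differentiation medium lacked EGF and bFGF and held 2% B27, with 3 libraries under 4HBP and 2 under vehicle. Every comparison between the media is therefore a comparison of growth factors, B27 and the cells that result, which cannot be told apart. The deposited sample labels call 4HBP 4-hydroxybenzoic acid, whereas the study calls it 4-hydroxybenzophenone. Nothing in the labels says that libraries of a group came from separate cultures or how many embryos gave the cells, so every p-value measures only the spread between these libraries.

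A cell enters S phase from G1 when kinases built on CDK4 or CDK6 with a D cyclin, and then on CDK2 with an E cyclin, phosphorylate the retinoblastoma protein and its relatives, which releases the E2F transcription factors. D cyclins are made in response to growth factors such as EGF and FGF, whereas the genes of the E cyclins are themselves E2F targets. INK4 inhibitors such as those of Cdkn2a and Cdkn2c bind CDK4 and CDK6 alone, and CIP/KIP inhibitors such as p27, the product of Cdkn1b, bind several cyclin-kinase pairs. Cyclin D2 in particular is known for its part in the generation of neurons in the hippocampus. In these data the members are measured as mRNA only, although several of them are known to be regulated by protein degradation.

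Library totals were between 20822921 and 23438463 expected counts, so that 3 counts, taken as the smallest detectable amount, correspond to between 0.128 and 0.144 CPM, which is expected counts scaled to the library total. This floor covers counting error only. The NSC label was met by Sox2, at 234 to 332 CPM, and by Nes, at 441 to 785 CPM in proliferation and 87.7 to 99.0 CPM in differentiation medium. The astrocyte marker Gfap (1329 to 2541 CPM) and the oligodendrocyte marker Mbp (772 to 3429 CPM) were high in every library. Of the markers of endothelium, microglia and fibroblasts, Kdr was at 1.29 to 2.11 CPM and P2ry12 at 0.593 to 3.34 CPM. Pdgfrb was at most 1.38 CPM in proliferation and at 26.8 to 30.5 CPM in differentiation medium. The other markers of these lists were at or below 0.593 CPM, with Cldn5 and Cdh5 at 0 throughout. Neuronal markers differed widely in level. Map2 was at 650 to 855 CPM, Dcx at 109 to 190.5 CPM and Tubb3 at 41.3 to 76.4 CPM. Syp was at 12.1 to 17.6 CPM, Snap25 at 2.27 to 11.4 CPM and Rbfox3 at 1.43 to 2.97 CPM. Within the proliferation 4HBP group, replicate 3 stood apart from replicates 1 and 2, with a mean chi-square per gene of 25.6 and 23.0 against 5.62 between those 2 replicates. Replicates were closer in differentiation medium, where edgeR's common coefficient of variation between them was 0.0368 against 0.117 in proliferation medium. A smaller change can thus pass the threshold in differentiation medium. The proliferation marker Mki67 was at 314, 408 and 323 CPM in the 3 proliferation vehicle libraries, at 269, 310.1 and 159 CPM in the 4HBP ones, and at 35.0 to 57.2 CPM in differentiation medium. In such bulk RNA, fewer cells of a type and less RNA per cell cannot be told apart.

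Promoter sequences of 7 of the 10 members could be taken from RefSeq, in 10 windows that ran from 250 bases before to 50 bases after an annotated start. The stretches before the transcript start are printed for the genes whose results turn on a choice of start or on their level, namely the starts of Cdkn2a, the start of the shorter Cdkn2c transcript, and Cdk4. They are given 5′ to 3′ on the strand of the gene in build GRCm38.p6, with capitals for a match to an E2F motif or an E-box. The E2F motif was searched as the letters TTTCCCGC, TTTCGCGC, TTTGCCGC or TTTGGCGC and the E-box as CACGTG, each on both strands.

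Cdkn2a Arf start, chr4:89294654-89294869, minus strand: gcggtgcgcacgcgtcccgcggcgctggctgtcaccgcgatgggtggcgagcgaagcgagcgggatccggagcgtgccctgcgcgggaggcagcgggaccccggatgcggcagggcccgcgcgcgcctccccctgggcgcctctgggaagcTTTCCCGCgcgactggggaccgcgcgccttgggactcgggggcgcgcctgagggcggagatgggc
Cdkn2a Ink4a start, chr4:89282193-89282442, minus strand: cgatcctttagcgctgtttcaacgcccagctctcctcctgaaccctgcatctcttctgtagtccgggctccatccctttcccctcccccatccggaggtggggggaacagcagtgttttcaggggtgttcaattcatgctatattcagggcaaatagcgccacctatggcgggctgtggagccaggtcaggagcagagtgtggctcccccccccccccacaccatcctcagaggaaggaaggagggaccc
Cdkn2c shorter transcript, chr4:109665373-109665609, minus strand: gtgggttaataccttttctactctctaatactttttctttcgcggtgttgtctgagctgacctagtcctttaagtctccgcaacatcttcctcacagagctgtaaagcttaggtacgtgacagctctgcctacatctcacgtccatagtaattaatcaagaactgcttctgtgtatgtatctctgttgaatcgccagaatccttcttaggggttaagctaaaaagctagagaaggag
Cdk4, chr10:127063285-127063533, plus strand: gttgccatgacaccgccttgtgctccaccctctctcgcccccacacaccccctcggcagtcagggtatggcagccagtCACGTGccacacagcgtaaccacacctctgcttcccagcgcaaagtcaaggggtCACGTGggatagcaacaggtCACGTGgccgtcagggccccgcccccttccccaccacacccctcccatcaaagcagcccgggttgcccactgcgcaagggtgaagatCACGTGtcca

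The Arf stretch held 1 E2F match and the Ink4a and Cdkn2c stretches held none, against at least 1 match in 2.26% of the 32851 mouse promoter windows. The window of Ccne1, which is not printed, held none either, and there was no window for Ccne2. The windows are 300 bases long, whereas the printed stretches are 216 to 250 bases. The Cdk4 stretch held 4 E-boxes. The windows of Cdk6 and of the shorter Cdkn2c transcript held 1 E-box each, outside the stretches before the transcript start. At least 1 E-box was in 7.15% of the windows, and 4 or more were in 0.0244% of them, which is 8 windows. These matches describe the letters of these stretches only.

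In vehicle, 8 of the 10 members had lower counts in differentiation than in proliferation medium and the others, Ccnd3 and Cdkn2a, had higher ones. For Cdkn2c this depended on how transcript length was treated, as given below. All 10 passed an adjusted p of 0.05 in edgeR's quasi-likelihood test with Benjamini-Hochberg adjustment over all genes tested, which is the test meant wherever an adjusted p is given below without another name. The medium changed most of the transcriptome, with 62.9% of the genes tested called (31.4% higher and 31.5% lower in differentiation medium), so the number of members called is to be read against that share. The same comparison under 4HBP called 8 members, 1 higher and 7 lower, against 67.4% of all genes (33.3% higher and 34.1% lower). The log2 fold changes of the members had a median of -0.67 in vehicle and -0.45 under 4HBP, where those of all genes tested had medians of 0.02 and 0.005. The 4HBP comparisons called 1 member each, Cdkn2c in proliferation medium, where 7.43% of all genes were called, and Ccnd1 in differentiation medium, where 2.55% were. Both were lower, the direction taken by 3.69% and 1.29% of all genes, and 0 members were called higher, against 3.74% and 1.26%.

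Ccnd1, the D cyclin best known as a target of growth-factor signalling, was at 269, 204 and 428 CPM in the 3 proliferation vehicle libraries and at 407, 406 and 256 CPM in the 4HBP ones. It was at 97.3 and 90.9 CPM in the differentiation vehicle libraries and at 83.4, 80.7 and 84.0 CPM in the 4HBP ones. All proliferation libraries lay above all differentiation libraries. Within proliferation medium the treatments overlapped fully, and replicates of 1 group differed by more than the group means. Between the media, Ccnd1 fell by 1.76 ± 0.26 (SE) on the log2 scale in vehicle (adjusted p = 0.000284) and by 2.15 ± 0.18 under 4HBP (adjusted p = 7.3e-06).

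4HBP changed Ccnd1 by a log2 fold change of 0.22 ± 0.27 in proliferation medium (adjusted p = 0.672). That value depended on single libraries, since it was 0.01 without vehicle replicate 2 and 0.57 without vehicle replicate 3. In differentiation medium the 4HBP libraries lay below both vehicle libraries and the log2 fold change was -0.18 ± 0.04, a fold of 0.883 (adjusted p = 0.0375). The SE here was smaller than in proliferation medium, where replicates differed more. The call was lost in 11 of 15 alternatives, among them DESeq2 (adjusted p = 0.0841), limma on log2(CPM+1) (0.373) and all 5 fits that left out a library (0.0558 to 0.385), with log2 fold changes between -0.25 and -0.14. Nes, the intermediate filament of NSCs, was at 472, 441 and 675 CPM in the proliferation vehicle libraries and at 730, 785 and 493 CPM in the 4HBP ones, so in each group it was lowest in the same library as Ccnd1. The part of the cell make-up of each library in the level of Ccnd1 was not tested.

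Ccnd2, the D cyclin with the most counts here, was at 405, 320.5 and 496 CPM in the proliferation vehicle libraries and at 539, 524 and 424 CPM in the 4HBP ones. It was at 193 and 206 CPM in the differentiation vehicle libraries and at 221, 215 and 219 CPM in the 4HBP ones. As for Ccnd1, the media did not overlap, the treatments overlapped in proliferation medium, and they did not overlap in differentiation medium, though here the 4HBP libraries were the higher ones. Ccnd2 fell by 1.11 ± 0.15 between the media in vehicle (adjusted p = 0.000182) and by 1.22 ± 0.10 under 4HBP (adjusted p = 8.46e-06).

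The log2 fold change of Ccnd2 with 4HBP was 0.25 ± 0.16 in proliferation medium (adjusted p = 0.374) and 0.13 ± 0.04 in differentiation medium (adjusted p = 0.0956). The latter was called without the filter on low counts (adjusted p = 0.0225) and with a replicate block (0.029), neither of which changed its direction. Ccnd1 and Ccnd2 thus moved in opposite directions with 4HBP in differentiation medium, with only Ccnd1 past the threshold.

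Ccnd3, which also pairs with CDK4 and CDK6, was the only cyclin of the 5 that was higher in differentiation medium. It was at 42.4, 37.3 and 41.6 CPM in the proliferation vehicle libraries, at 37.2, 36.0 and 30.7 CPM in the 4HBP ones, at 64.8 and 61.6 CPM in the differentiation vehicle libraries and at 61.9, 60.1 and 62.1 CPM in the 4HBP ones. The lowest differentiation library was well above the highest proliferation library. The rise was 0.56 ± 0.08 on the log2 scale in vehicle (adjusted p = 0.000166) and 0.79 ± 0.09 under 4HBP (adjusted p = 5.57e-05). In proliferation medium the 3 4HBP libraries lay just below the 3 vehicle libraries, with a log2 fold change of -0.26 ± 0.11 (adjusted p = 0.17), and in differentiation medium it was -0.04 ± 0.05 (adjusted p = 0.759). Of the counted bases of Ccnd3, 3.07% of its 40-base words also occur in other genes, and it overlaps the exons of Bysl on the opposite strand.

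**Figure D1:**
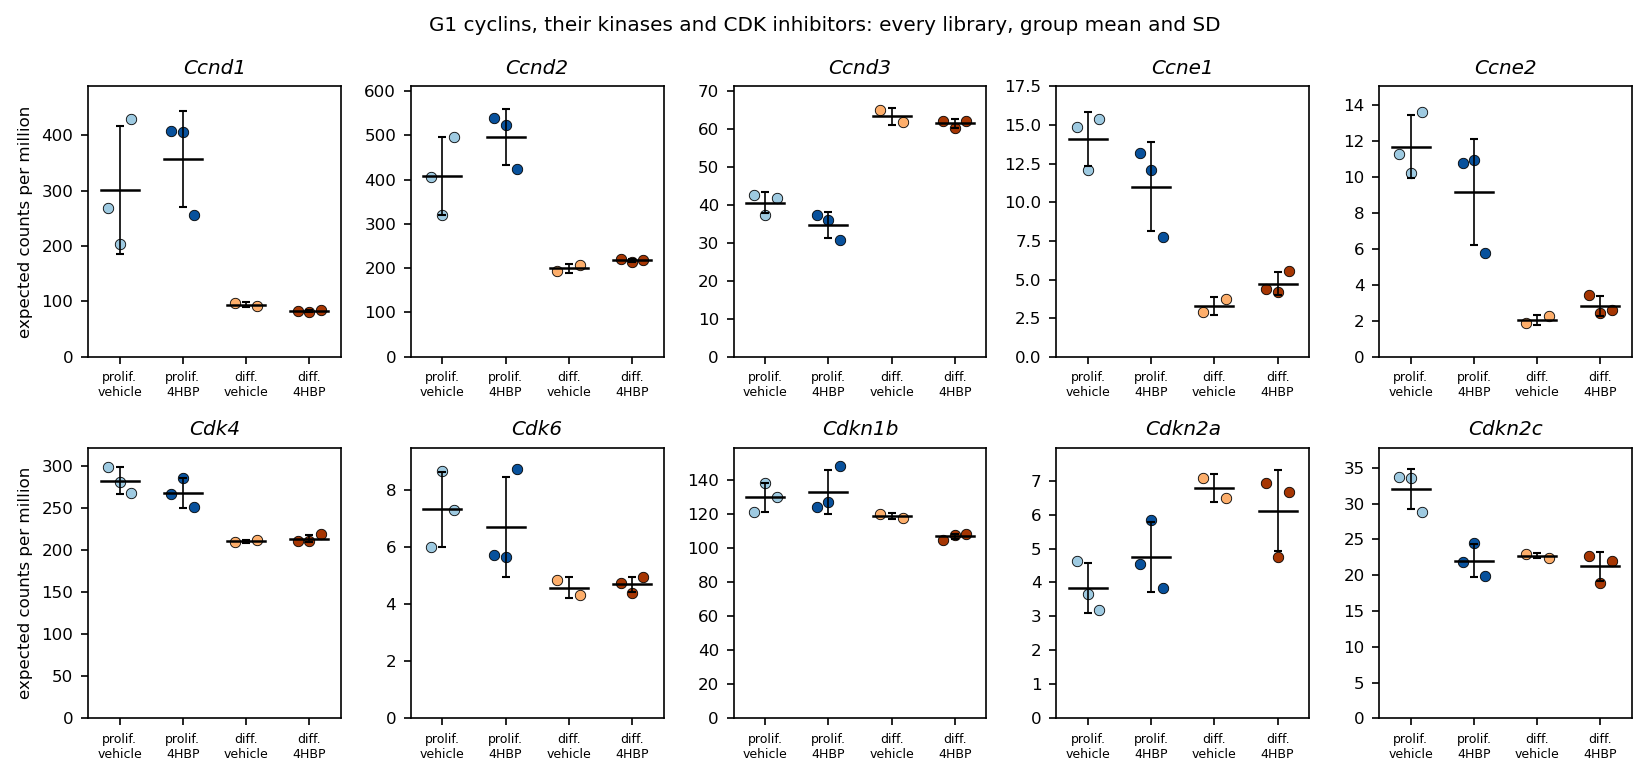
Each panel plots 1 of the 10 genes in CPM of expected counts, with 1 point per library and a bar for the group mean with its SD (n = 3, and n = 2 for the differentiation vehicle group). Ccnd1, Ccnd2, Ccne1 and Ccne2 sit far lower in the differentiation libraries, Ccnd3 sits higher, and Cdkn2c is the gene whose 3 proliferation vehicle libraries, between 28.8 and 33.8, stand above all others.

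Compared per length of transcript, as TPM, the make-up of the D cyclins changed with the medium. In proliferation vehicle libraries Ccnd1 gave 45.8% ± 5.0 (SD, n = 3) of the summed TPM of the 3 D cyclins, Ccnd2 37.5% ± 1.7 and Ccnd3 16.8% ± 4.0. In differentiation vehicle libraries Ccnd1 gave 27.4% ± 2.4 (SD, n = 2), Ccnd2 38.2% ± 3.7 and Ccnd3 34.4% ± 1.3. On this scale Ccnd1 was the largest part in proliferation medium and the smallest in differentiation medium, and the share of Ccnd3 was higher in differentiation medium.

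Under 4HBP the share of Ccnd1 was 48.0% ± 3.5 in proliferation and 22.5% ± 0.5 in differentiation medium, and that of Ccnd3 was 12.2% ± 0.8 and 35.9% ± 1.0 (SD, n = 3 each). The shares of Ccnd1 did not overlap between the treatments in differentiation medium (21.9% to 22.9% against 25.7% to 29.1%), nor did those of Ccnd3 in proliferation medium (11.4% to 12.9% against 13.0% to 20.9%), the latter by a margin that is small beside the spread. These shares are descriptive, with no test. They depend on the length by which counts are divided, since from undivided counts Ccnd3 made up 3.94% to 5.62% of the D cyclins in proliferation and 17.0% to 17.7% in differentiation medium. From undivided counts Ccnd1 made up 39.4% in proliferation and 26.4% in differentiation vehicle libraries and was thus above Ccnd3 in both media, so the order of the D cyclins in differentiation medium is given by TPM only.

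**Figure D2:**
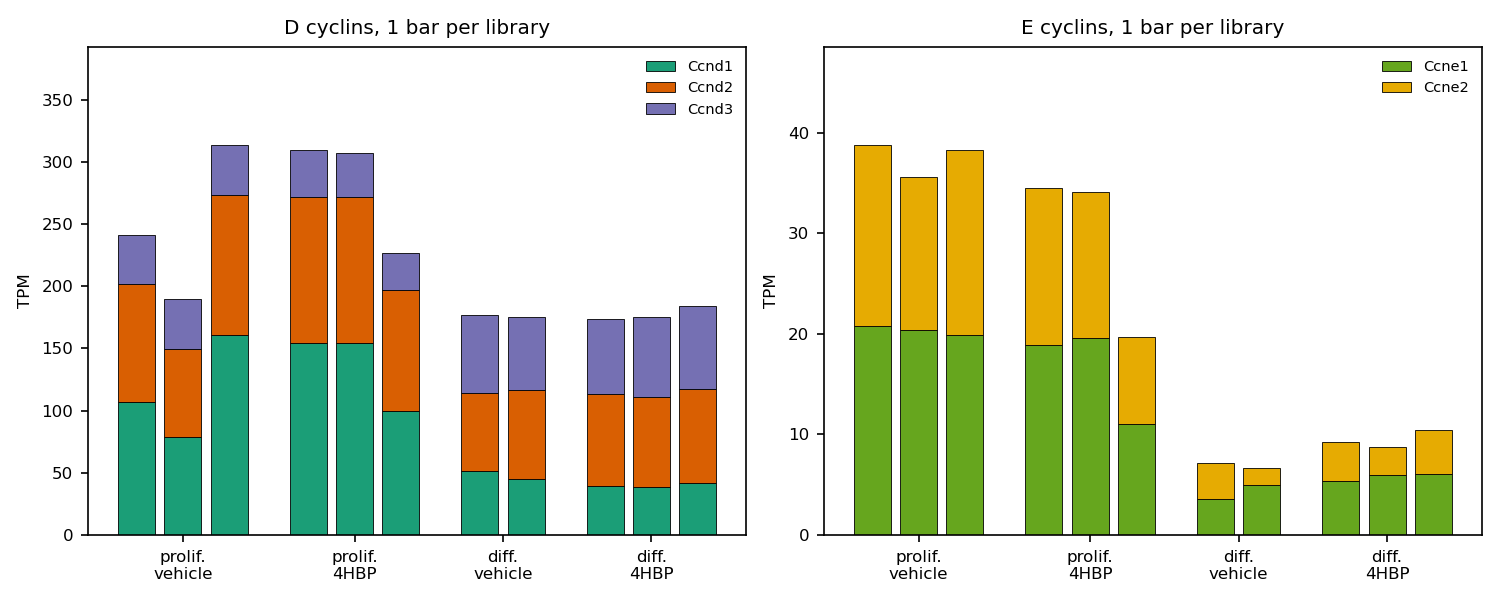
Stacked bars give the TPM of the cyclins in each of the 11 libraries, with the D cyclins and the E cyclins in panels of their own and libraries grouped by medium and treatment. The summed D cyclins ranged from 189 to 314 TPM in proliferation and from 173 to 184 TPM in differentiation medium, with a smaller part from Ccnd1 and a larger part from Ccnd3 in differentiation medium. TPM is relative within a library and was higher in differentiation medium for the median gene, a shift that is not taken out of these sums.

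The E cyclins showed the steepest falls of the 10 members from proliferation to differentiation medium in vehicle. Ccne1, a partner of CDK2 at the entry into S phase, was at 14.9, 12.1 and 15.4 CPM in the proliferation vehicle libraries and at 13.2, 12.1 and 7.77 CPM in the 4HBP ones. It was at 2.87 and 3.71 CPM in the differentiation vehicle libraries and at 4.38, 4.23 and 5.57 CPM in the 4HBP ones. Ccne2, its paralogue, was at 11.3, 10.2 and 13.6 CPM, then at 10.8, 10.95 and 5.76 CPM, then at 1.87 and 2.26 CPM, and then at 3.44, 2.42 and 2.59 CPM in the same groups. For both genes proliferation 4HBP replicate 3 was the lowest proliferation library, and the 3 differentiation 4HBP libraries lay above the 2 vehicle ones.

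Ccne1 fell by 2.17 ± 0.18 on the log2 scale between the media in vehicle, to a fold of 0.222 (adjusted p = 6.34e-06), and Ccne2 by 2.57 ± 0.20, to a fold of 0.168 (adjusted p = 4.29e-06). Under 4HBP the falls were 1.26 ± 0.23 (adjusted p = 0.000935) and 1.74 ± 0.28 (adjusted p = 0.000487). Whether the fall differed with 4HBP is the question of the interaction, the 4HBP effect in proliferation minus that in differentiation medium. The interaction was fitted over all 11 libraries with a common estimate of the spread, although the media differ in spread. It was -0.91 ± 0.32 for Ccne1 (adjusted p = 0.141) and -0.83 ± 0.40 for Ccne2 (adjusted p = 0.264) and passed the threshold for neither.

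With 4HBP, the log2 fold change of Ccne1 was -0.38 ± 0.20 in proliferation medium (adjusted p = 0.284) and 0.52 ± 0.19 in differentiation medium (adjusted p = 0.174), and that of Ccne2 was -0.38 ± 0.24 (adjusted p = 0.379) and 0.45 ± 0.23 (adjusted p = 0.367). The values in proliferation medium rested on 4HBP replicate 3, without which they were -0.16 for Ccne1 and -0.11 for Ccne2. That library was also the lowest in Mki67. Few counts stood behind the differentiation values, with 63 to 116 expected counts per library for Ccne1 and 41 to 77 for Ccne2. Ccne1 made up 54.3% ± 2.6 of the summed TPM of both genes in the proliferation vehicle libraries and 63.2% ± 17.4 in the differentiation ones, so their proportion did not change beyond its spread.

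The kinases stood at opposite ends of the range of levels. Cdk4 was at 299.8, 281 and 268 CPM in the proliferation vehicle libraries, at 267, 286 and 252 CPM in the 4HBP ones, at 209.8 and 212 CPM in the differentiation vehicle libraries and at 212, 211 and 219 CPM in the 4HBP ones. The treatments overlapped in both media, and the media did not overlap. Cdk4 fell by 0.50 ± 0.06 on the log2 scale in vehicle (adjusted p = 0.000111) and by 0.36 ± 0.07 under 4HBP (adjusted p = 0.00128). With 4HBP its log2 fold change was -0.11 ± 0.08 in proliferation medium (adjusted p = 0.471) and 0.03 ± 0.04 in differentiation medium (adjusted p = 0.789).

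Cdk6, the other kinase that D cyclins activate, was at 6.02, 8.66 and 7.31 CPM in the proliferation vehicle libraries, at 5.73, 5.66 and 8.73 CPM in the 4HBP ones, at 4.84 and 4.33 CPM in the differentiation vehicle libraries and at 4.74, 4.40 and 4.95 CPM in the 4HBP ones. Its proliferation libraries were spread widely, but all were above the differentiation libraries. It fell by 0.76 ± 0.19 in vehicle (adjusted p = 0.00682) and by 0.55 ± 0.18 under 4HBP (adjusted p = 0.0259). The call under 4HBP was lost in 7 of 16 alternatives, namely limma on log2(CPM+1) (adjusted p = 0.0856, also under the fold threshold of the study), the mean transcript length of each library as an offset (0.113) and the fits without proliferation 4HBP replicate 3 (0.0546) or without differentiation 4HBP replicate 1 (0.067), 2 (0.0851) or 3 (0.0524). In vehicle it was lost in 3 of 15, with the length offset (adjusted p = 0.0859), under the fold threshold of the study and without differentiation vehicle replicate 2 (0.0604).

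On the scale of TPM, which allows levels of different genes to be compared, Cdk4 stood first of the 10 in every group. Its mean was 658 TPM in the proliferation vehicle group, followed by Ccnd1 at 116, Ccnd2 at 92.5, Cdkn1b at 59.7, Ccnd3 at 39.9, Cdkn2c at 24.6, Ccne1 at 20.4, Ccne2 at 17.2, Cdkn2a at 7.39 and Cdk6 at 1.13 TPM. Only the neighbours Ccnd1 and Ccnd2 overlapped in that order. In the differentiation vehicle group the order was Cdk4 at 565, Cdkn1b at 68.8, Ccnd2 at 67.3, Ccnd3 at 60.5, Ccnd1 at 48.2, Cdkn2c at 32.3, Cdkn2a at 16.1, Ccne1 at 4.32, Ccne2 at 2.56 and Cdk6 at 1.13 TPM, and only Cdkn1b and Ccnd2 overlapped.

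Ccnd1 thus went from the second to the fifth place and both E cyclins went below Cdkn2a. Of the summed TPM of the kinases, Cdk4 took 99.8% in the proliferation and 99.8% in the differentiation vehicle group, or 97.5% and 97.9% from counts not divided by length. TPM values are relative within a library, and over the genes tested their median log2(TPM+1) was 0.31 higher in the differentiation than in the proliferation vehicle libraries, so levels are not compared between the media on this scale.

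Among the inhibitors, Cdkn2c, which encodes the INK4 inhibitor p18, was the 1 member that 4HBP changed in proliferation medium. It was at 33.8, 33.6 and 28.8 CPM in the vehicle libraries and at 21.8, 24.5 and 19.8 CPM in the 4HBP ones, with no overlap. In differentiation medium it was at 22.9 and 22.4 CPM with vehicle and at 22.7, 18.9 and 22.0 CPM with 4HBP, where the groups overlapped. In counts not divided by length, the proliferation vehicle group was therefore the high one and the other 3 groups overlapped. This order did not hold with the mean transcript length as an offset, where the log2 difference between the media was -0.05 in vehicle and 0.25 under 4HBP (given below).

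The log2 fold change of Cdkn2c with 4HBP was -0.57 ± 0.11 in proliferation medium, a fold of 0.673 (adjusted p = 0.0227), and -0.09 ± 0.08 in differentiation medium (adjusted p = 0.626). The difference between these effects was -0.49 ± 0.15 (unadjusted p = 0.00749, adjusted p = 0.0969) and did not pass. In proliferation medium it was lower in every alternative, by 0.46 to 0.66, but the call was lost in 6 of 16, namely limma on log2(CPM+1) (adjusted p = 0.0757, also under the fold threshold of the study), the length offset (0.0534) and the fits without 4HBP replicate 1 (0.0553), vehicle replicate 1 (0.0957) or vehicle replicate 2 (0.109). Without 4HBP replicate 3, the library that stood apart, the log2 fold change was -0.48 and the call held (adjusted p = 0.0216).

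Between the media Cdkn2c fell by 0.58 ± 0.09 in vehicle (adjusted p = 0.000473) and was -0.09 ± 0.11 under 4HBP (adjusted p = 0.487). The size of the fall in vehicle depended on how transcript length was treated. Cdkn2c has 2 annotated transcripts, Cdkn2c-201 of 1106 bases and Cdkn2c-202 of 2471 bases. The latter starts upstream and holds the start of the former within an intron. The start of Cdkn2c-201 is the one whose upstream stretch is printed above. RSEM gives each gene in each library a mean transcript length weighted by TPM, from which the share of each transcript follows where there are only 2.

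The longer transcript gave 55.4%, 61.9% and 65.9% of the TPM of Cdkn2c in the proliferation vehicle libraries and 53.6%, 57.4% and 41.3% in the 4HBP ones. In differentiation medium it gave 17.6% and 20.9% with vehicle and 23.9%, 28.5% and 25.2% with 4HBP. All proliferation libraries were above all differentiation libraries. In mean TPM, the longer transcript was at 14.9 ± 1.0 (SD, n = 3) and 6.20 ± 0.53 (n = 2) in the proliferation and differentiation vehicle groups, and the shorter one at 9.70 ± 2.53 and 26.1 ± 1.7. The shift in TPM between the media, given above, is not taken out of these levels.

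The mean length of Cdkn2c, tested with limma on the log2 scale over 10055 and 10002 genes, was shorter in differentiation medium by a log2 difference of -0.50 ± 0.04 in vehicle (limma adjusted p = 0.0128) and of -0.30 ± 0.05 under 4HBP (limma adjusted p = 0.0207). Of all genes tested, 13.8% and 20.4% passed. The calls were lost in 3 of 5 and in 5 of 6 fits that left out a library, with an adjusted p of at most 0.0718 and 0.0737, while the direction was kept. With the mean length as an offset in edgeR, the difference in Cdkn2c between the media was -0.05 (adjusted p = 0.753) in vehicle and 0.25 (adjusted p = 0.074) under 4HBP. In vehicle, the lower count of Cdkn2c in differentiation medium was seen beside a larger share of the shorter transcript. Under 4HBP that share was also larger in differentiation medium, but the count was not lower past the threshold. Whether the share and the count are linked was not tested beyond the length offset. Length differences were not particular to Cdkn2c. The mean length of Ccnd2 was also shorter in differentiation medium, by -0.22 in vehicle (limma adjusted p = 0.0255) and -0.25 under 4HBP (limma adjusted p = 0.00155). That of Ccne1 was longer by 0.49 under 4HBP (limma adjusted p = 0.0308). Only the call of Ccnd2 under 4HBP was kept in every fit that left out a library.

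4HBP did not change the mean length of Cdkn2c past the threshold in proliferation (-0.11 ± 0.06, limma adjusted p = 0.865) or differentiation medium (0.09 ± 0.03, limma adjusted p = 0.75), where 0 of 10097 and 0 of 10543 genes passed in limma and 635 and 645 had an unadjusted p under 0.05. At an unadjusted p of 0.12 and 0.0304, Cdkn2c passed 0.05 in differentiation medium only. The longer transcript of Cdkn2c was at 15.2, 15.7 and 13.9 TPM in the proliferation vehicle libraries and at 9.30, 11.1 and 7.59 TPM in the 4HBP ones, whereas the shorter one was at 12.2, 9.67 and 7.19 TPM and at 8.07, 8.21 and 10.8 TPM. The groups did not overlap for the longer transcript and overlapped for the shorter, a description with no test. The error of RSEM's division between transcripts is not given in the tables, and these values were looked at after the counts had been seen.

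**Figure D3:**
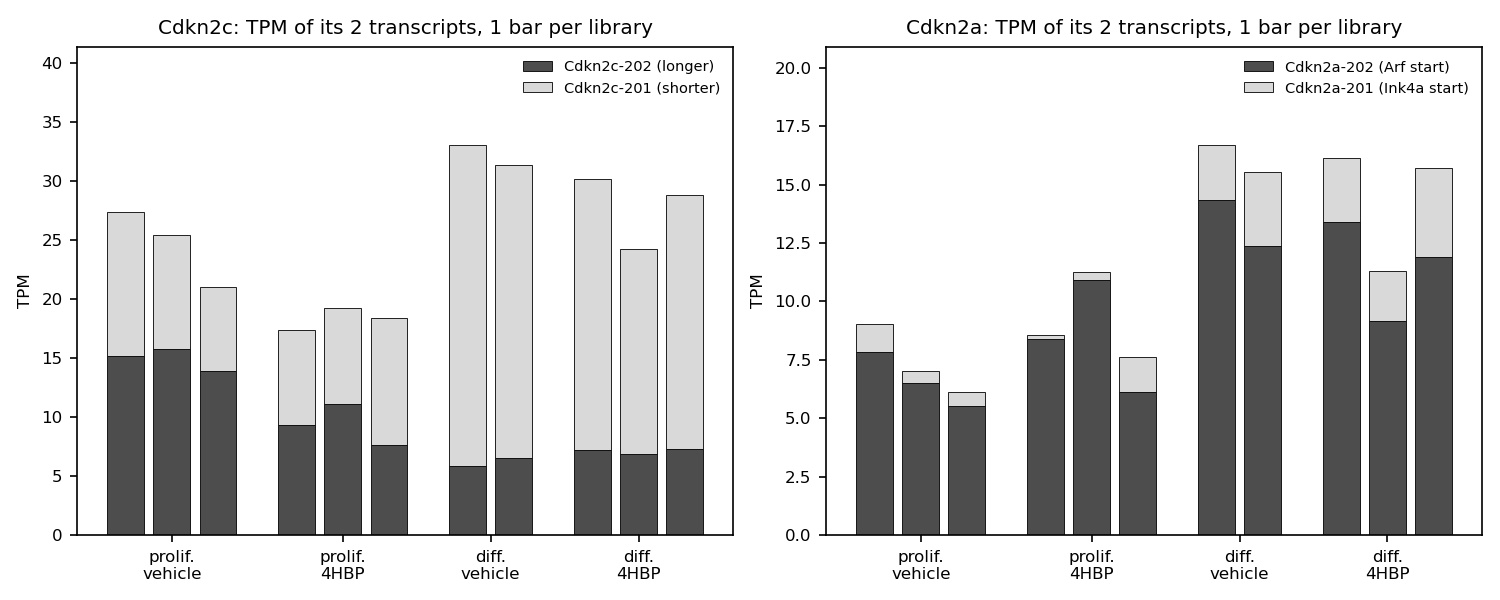
Each bar is 1 library and gives the TPM of Cdkn2c (left) or Cdkn2a (right), divided between its 2 annotated transcripts as the mean transcript length implies. For Cdkn2c the longer transcript holds 41.3% to 65.9% in proliferation and 17.6% to 28.5% in differentiation medium, and for Cdkn2a the transcript from the Arf start holds 75.8% to 97.9% throughout.

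Cdkn2a, whose 2 starts give the INK4 inhibitor p16 and the unrelated p53 activator ARF from overlapping frames, was at 4.63, 3.67 and 3.20 CPM in the proliferation vehicle libraries and at 4.54, 5.85 and 3.84 CPM in the 4HBP ones. It was at 7.07 and 6.49 CPM in the differentiation vehicle libraries and at 6.93, 4.74 and 6.68 CPM in the 4HBP ones. The media did not overlap in vehicle and overlapped under 4HBP through differentiation replicate 2. Cdkn2a rose by 0.74 ± 0.19 on the log2 scale in vehicle (adjusted p = 0.00677), a call that was lost without differentiation vehicle replicate 1 (0.0607), and its difference was 0.33 ± 0.21 under 4HBP (adjusted p = 0.205). With 4HBP its log2 fold change was 0.28 ± 0.22 in proliferation (adjusted p = 0.483) and -0.15 ± 0.16 in differentiation medium (adjusted p = 0.714).

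The transcript of Cdkn2a from the Arf start, Cdkn2a-202, gave 89.9% ± 2.8 (SD, n = 3) of its TPM in proliferation vehicle, 91.7% ± 10.1 in proliferation 4HBP, 82.7% ± 4.5 (n = 2) in differentiation vehicle and 80.1% ± 3.8 in differentiation 4HBP libraries. Most Cdkn2a mRNA was therefore assigned to the Arf start in every library. These shares rest on 67 to 155 expected counts per library and on transcripts of 852 and 895 bases that share most of their sequence, and the mean length passed the test in no comparison. The Arf stretch with its E2F match and the Ink4a stretch without one are printed above.

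Cdkn1b, the gene of the CIP/KIP inhibitor p27, was at 121, 138 and 130.3 CPM in the proliferation vehicle libraries, at 125, 127 and 148 CPM in the 4HBP ones, at 120.2 and 118 CPM in the differentiation vehicle libraries and at 105, 108 and 108 CPM in the 4HBP ones. In differentiation medium the 4HBP libraries lay below the vehicle libraries, and in proliferation medium the groups overlapped. Its log2 fold change with 4HBP was 0.00 ± 0.08 in proliferation medium (adjusted p = 0.997) and -0.15 ± 0.04 in differentiation medium (adjusted p = 0.0687). The latter was called without the filter on low counts (adjusted p = 0.0497) and with the replicate block (0.0212).

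Between the media Cdkn1b fell by 0.21 ± 0.07 in vehicle (adjusted p = 0.0292), the smallest change of the 10 members there, and by 0.35 ± 0.06 under 4HBP (adjusted p = 0.000937). In vehicle the call was lost in 7 of 15 alternatives, namely library totals in place of TMM (adjusted p = 0.135), limma on log2(CPM+1) (0.228, also under the fold threshold of the study), the length offset (0.0761) and the fits without proliferation vehicle replicate 2 (0.0649) or without differentiation vehicle replicate 1 (0.12) or 2 (0.147). The gene of this brake on cell division was thus not higher in the medium without growth factors.

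Counting members whose groups did not overlap, 2 of 10 were so with 4HBP in proliferation medium (Ccnd3 and Cdkn2c, both lower), where 31.3% of all genes were, and 5 of 10 in differentiation medium (Ccnd1 and Cdkn1b lower, Ccnd2, Ccne1 and Ccne2 higher), where 32.9% were. Between the media all 10 were apart in vehicle and 8 of 10 under 4HBP, against 77.4% and 73.1% of all genes. The interaction called 0 of the 10 members in edgeR, against 4.49% of all genes. At an unadjusted p under 0.05 it held Cdkn2c and Ccne1 (0.015), where 19.9% of all genes did, and DESeq2 called no member either. Without the filter on low counts, where more genes were called in all (given below), it called 4 members, Ccnd1, Ccne1, Ccne2 and Cdkn2c. For each of these members this was the only 1 of 19 alternatives with a call.

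**Figure D4:**
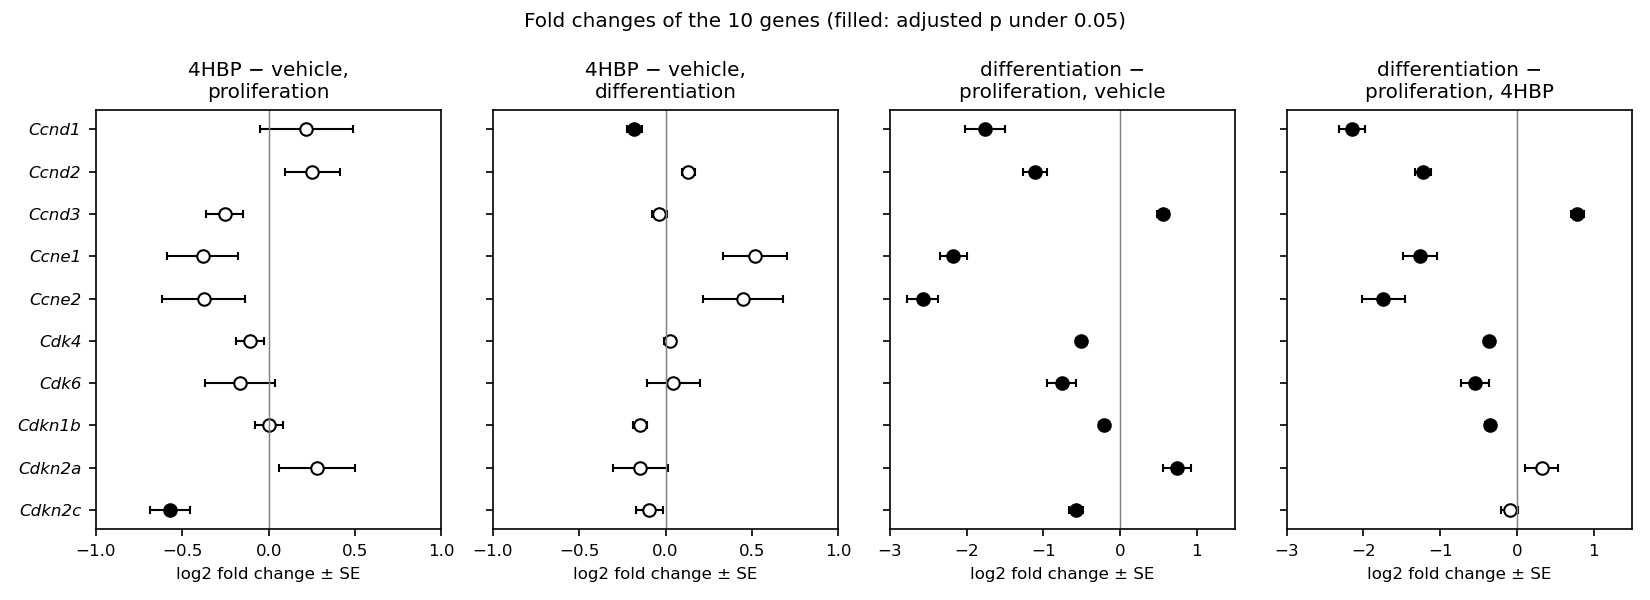
Points give the log2 fold change of each of the 10 genes with its SE in the 4 comparisons between 2 groups, filled where the adjusted p was under 0.05. The 4HBP comparisons hold 1 filled point each, Cdkn2c at -0.57 in proliferation and Ccnd1 at -0.18 in differentiation medium, whereas the comparisons between the media hold 10 in vehicle and 8 under 4HBP.

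The other CDK inhibitors included the gene of the inhibitor p21, Cdkn1a, which is induced by p53 and by stress. It was at 117, 101 and 149 CPM in the proliferation vehicle libraries and at 273, 315 and 410.3 CPM in the 4HBP ones, against 276 and 298 CPM and 263, 269.5 and 291 CPM in differentiation medium. It rose with 4HBP in proliferation medium by 1.41 ± 0.16 on the log2 scale (adjusted p = 0.00419) and stood at a log2 fold change of -0.06 ± 0.05 in differentiation medium (adjusted p = 0.591). Its proliferation vehicle libraries were the low group, and the call was lost in 1 of 16 alternatives, limma on log2(CPM+1) (adjusted p = 0.056).

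Cdkn1c, the gene of p57, was at 42.4, 43.8 and 35.4 CPM in the proliferation vehicle libraries and at 25.5, 32.9 and 29.7 CPM in the 4HBP ones, a fall of 0.50 ± 0.11 (adjusted p = 0.0336). The call was lost in 5 of 16 alternatives, namely limma on log2(CPM+1) (adjusted p = 0.125, also under the fold threshold of the study) and the fits without 4HBP replicate 1 (0.0936), vehicle replicate 1 (0.132) or vehicle replicate 2 (0.147). It was at 2.24 and 3.29 CPM in the differentiation vehicle libraries, with a log2 difference of -3.94 ± 0.17 from proliferation medium (adjusted p = 1.55e-07). Of the 5 other inhibitors 1 was called higher and 1 lower with 4HBP in proliferation medium and 0 in differentiation medium, where edgeR and DESeq2 called 0 and edgeR had 0 at an unadjusted p under 0.05. Between the media in vehicle, Cdkn1a was higher and Cdkn1c, Cdkn2b and Cdkn3 were lower.

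Of the 13 pocket proteins, E2F factors and DP partners, 1 was called higher and 1 lower with 4HBP in proliferation medium. The higher one was E2f5 (0.32 ± 0.07, adjusted p = 0.033), a repressive E2F named after its value was seen, and the lower one was E2f8 (-0.81 ± 0.18, adjusted p = 0.0297), an atypical E2F that is itself made at the entry into S phase. These calls were not stable, since that of E2f5 was lost in 9 of 16 alternatives (adjusted p up to 0.137), among them every fit that left out a library other than 4HBP replicate 3. That of E2f8 was lost in 6 of 16 (adjusted p up to 0.105), among them the fits without 4HBP replicate 1 or any 1 vehicle library.

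The list of 20 E2F targets of the G1/S transition had a median log2 fold change of -0.55, and all 20 values were below 0, where the median of all genes tested was 0.00. For all of them but Slbp, 4HBP replicate 3, the library that stood apart, was the lowest proliferation library. The median and the signs were not determined without that library. Only 1 of the 20 passed the test, Gins2 of the replicative helicase, at 18.4, 14.7 and 18.7 CPM with vehicle and 11.03, 11.6 and 7.87 CPM with 4HBP (-0.80 ± 0.17, adjusted p = 0.0297). The call of Gins2 was lost in 6 of 16 alternatives (adjusted p up to 0.119), among them the fits without 4HBP replicate 2 or any 1 vehicle library. The 14 other cyclins and kinases tested had a median of -0.34 and the 13 genes of cyclin and inhibitor turnover one of -0.01, with no gene called in either list by edgeR. In each list 2 genes had an unadjusted p under 0.05, and DESeq2 called 1 and 0 genes. DESeq2 also called 6 of the 20 E2F targets, 14 of which had an unadjusted p under 0.05 in edgeR.

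The E cyclins, at -0.38 each, thus lay between the median of these E2F targets and 0. As for the E cyclins, 4HBP replicate 3 was the lowest proliferation library for Gins2 and E2f8. In differentiation medium the E2F targets had a median of 0.15 and 1 of 20 called, Rrm2 (0.40 ± 0.10, adjusted p = 0.0389), and the other cyclins and kinases 1 of 14, Ccnb1 (0.49 ± 0.12, adjusted p = 0.0476), both named after their values were seen. The call of Ccnb1 was lost in 11 of 15 alternatives, among them DESeq2 (adjusted p = 0.173) and all 5 fits that left out a library (0.0742 to 0.308). That of Rrm2 was lost in 8 of 15, among them limma on log2(CPM+1) (adjusted p = 0.404) and the fits without 4HBP replicate 1 (0.0763), 4HBP replicate 3 (0.103) or vehicle replicate 1 (0.419). Mki67 was then at 46.2, 47.8 and 57.2 CPM with 4HBP and at 35.0 and 45.4 CPM with vehicle (adjusted p = 0.103).

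Of the 15 listed genes of growth-factor signalling and its feedback, 6 were called higher and 2 lower with 4HBP in proliferation medium. Egr1, an immediate early gene, was at 91.7, 61.5 and 75.7 CPM with vehicle and at 202, 229 and 181 CPM with 4HBP (1.39 ± 0.14, adjusted p = 0.00332). Dusp6, an ERK phosphatase made in response to ERK, was at 14.1, 10.3 and 14.7 CPM with vehicle and at 29.4, 33.8 and 31.3 CPM with 4HBP (1.24 ± 0.14, adjusted p = 0.00398). The feedback inhibitors Spry1 (0.84) and Spry4 (0.73) and, named after their values were seen, Etv5 (0.68) and Spry2 (0.52) were the other higher genes, and the receptor genes Fgfr2 (-0.84) and Fgfr3 (-0.36) were lower, the latter also named after its value was seen. The calls of Egr1, Dusp6 and Fgfr2 were lost in 1 of 16 alternatives, limma on log2(CPM+1) (adjusted p = 0.054, 0.054 and 0.056). Those of the others were lost more often, in 4 of 16 for Etv5, 5 for Spry2, 6 for Spry1 and 8 each for Spry4 and Fgfr3 (adjusted p up to 0.0821, 0.0825, 0.145, 0.172 and 0.156). All 5 were lost without 4HBP replicate 2, vehicle replicate 1 or vehicle replicate 2, those of Spry1, Spry4 and Fgfr3 also without 4HBP replicate 1, and those of Spry4 and Fgfr3 without vehicle replicate 3.

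The D cyclins were not called with 4HBP in proliferation medium, at 0.22, 0.25 and -0.26 for Ccnd1, Ccnd2 and Ccnd3. In differentiation medium 0 of the 15 genes were higher and 2 lower, Dusp6 (-0.30 ± 0.06, adjusted p = 0.0151) and Fgfr1 (-0.15 ± 0.03, adjusted p = 0.0243), both named after their values were seen, beside the lower Ccnd1. Both calls were lost in 9 of 15 alternatives, for Dusp6 among them limma on log2(CPM+1) (adjusted p = 0.302) and the fits without 4HBP replicate 1 or 2 or either vehicle library (0.0515 to 0.125), and for Fgfr1 limma (0.392) and the fits without 4HBP replicate 2 or 3 or either vehicle library (0.0543 to 0.268). Astrocyte markers moved too in proliferation medium, where 0 of 6 were higher and 3 lower with 4HBP, Gfap (-0.68), Aqp4 (-0.66) and Gja1 (-0.85). The part of the cell make-up in any of these values was not tested.

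**Figure D5:**
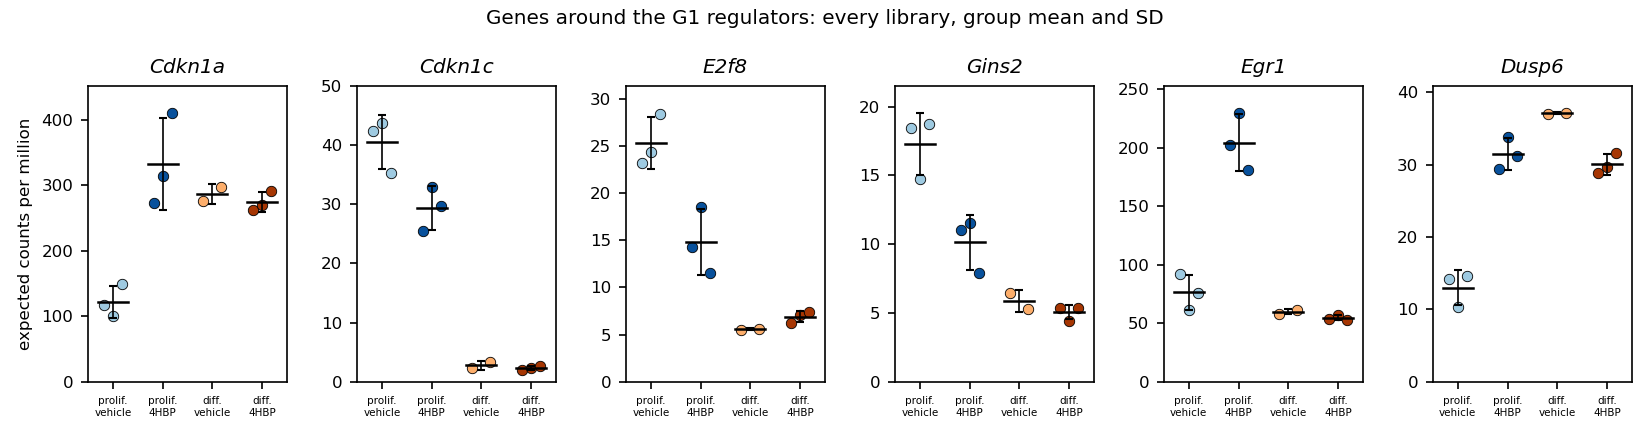
Each panel plots 1 gene around the G1 regulators in CPM of expected counts, with 1 point per library and a bar for the group mean with its SD (n = 3, and n = 2 for the differentiation vehicle group). In proliferation medium the 4HBP libraries of Cdkn1a, Egr1 and Dusp6 lie above all vehicle libraries and those of Cdkn1c, E2f8 and Gins2 below them.

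Between the media in vehicle, the E2F targets were lower in 19 of 20 genes with a median of -2.17, close to the falls of 2.17 and 2.57 of Ccne1 and Ccne2, with Tk1 (-3.38) and Cdc6 (-3.29) among the largest. The other cyclins and kinases were lower in 13 of 14, among them Ccna2 (-2.98), and the pocket proteins and E2F factors lower in 11 and higher in 1 of 13, among them Rbl1 (-2.30). Turnover genes were lower in 5, among them Cks2 (-2.48), and higher in 2 of 13. Genes of growth-factor signalling were called in both directions, 6 higher and 5 lower of 15, and Mycl (1.86) rose where Ccnd1 and Ccnd2 fell. Dusp6 also stood higher without growth factors, at 37.0 and 37.2 CPM against 14.1, 10.3 and 14.7 CPM. Etv5 stood lower, at 101 and 102 CPM against 141, 129 and 181 CPM. Under 4HBP the E2F targets were lower in 18 of 20 with a median of -1.17, which is nearer to 0 than in vehicle, as were the falls of both E cyclins. The interaction of the E2F targets had a median of -0.65, with 0 of 20 called by edgeR, 12 at an unadjusted p under 0.05 and 1 called by DESeq2. The medians under 4HBP and of the interaction include proliferation 4HBP replicate 3 and were not determined without it.

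The group means of 4 members ranged over more than 1 on the log2 scale, and the genes with the most similar pattern over the 11 libraries were sought for them among 15920 genes, by the root mean square difference of centred log2 CPM. These were Layn (0.15) and Itga5 (0.15) for Ccnd1 and Ptpn9 (0.07) and Dnajc2 (0.08) for Ccnd2. For Ccne1 they were Cdc7 (0.12) and Rfc3 (0.17), and for Ccne2 Mcm2 (0.17) and Mybl2 (0.18), both genes of the E2F target list. The order rests mainly on the medium, in which the groups differ most.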

How the data were processed

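The authors trimmed paired-end reads with cutadapt and quantified genes of GENCODE vM17 on mm10 (GRCm38) with RSEM 1.3.0 and Bowtie2 2.2.9, after FastQC 0.11.5, as the submitters' processing notes and the study's methods state. Library preparation was stranded and poly(A)-selected, and the strand setting of RSEM is not given in the sources used here. The authors deposited a table per library with the expected count of each gene, which is RSEM's estimated count without normalization (18.6% of the values above 0 were not whole), the TPM, which RSEM normalized for length and depth, and the mean and effective transcript lengths. The deposited FPKM was not used. Symbols, positions and transcripts came from GENCODE vM21 on the same build, in which 99.8% of the identifiers were found.

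For the tests, expected counts were rounded, filtered with filterByExpr, scaled by TMM and tested with edgeR 4.0.16 (glmQLFit and glmQLFTest, R 4.3.3) over the libraries compared, or over all 11 for the interaction, with an adjusted p threshold of 0.05. Following the study's methods, limma 3.58.1 on log2(CPM+1) was an alternative, with the thresholds of the study too (unadjusted p under 0.05 and a fold change over 0.58 on the log2 scale). The other alternatives were DESeq2 1.42.0, its size factors, library totals, voom, no filter, all libraries in 1 fit, a replicate block and each library left out. A length offset, and the tests of mean transcript length with limma on genes of at least 50 counts, were chosen after seeing the data. On simulated counts edgeR recovered 184 of 200 changed genes for 4HBP in proliferation medium, 178 in differentiation medium and 145 for the interaction. The changed genes were set to differ by 1 on the log2 scale, with a fixed spread in each simulation and no outlying library. That change is larger than any effect of 4HBP on the members, so the recovery does not apply to effects of their size.

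The members, the pathway lists and the cell markers were chosen with earlier results of these data known. Named beside the members are, for each list and comparison, at most 4 genes per direction with the largest log2 fold change among those past the adjusted p, past 0.58 and without overlap, and the other CDK inhibitors. Shared replicate numbers did not pair the libraries (correlations of deviations between -0.041 and 0.02), no library was a duplicate of another in its group, and the labels and headers give no batch or date. Exons of Ccnd1, Ccnd2, Ccnd3, Ccne2, Cdk4 and Cdk6 overlap genes on the opposite strand, from which reads can be told apart only if strand was used. Python 3.11.15 and pandas 2.3.3 were used beside R.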

Additional observations from a re-analysis of the deposited data

Results flagged for a closer look

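No group had the 4 libraries that a test for single outlying libraries needs. None of the 10 G1 regulators differed between the media in its response to 4HBP past the adjusted p in edgeR, where 4.49% of all genes did. Of the listed genes around them 9 did. These were 6 higher and 1 lower of 15 genes of growth-factor signalling, 1 of 5 other CDK inhibitors and 1 of 13 pocket proteins, E2F factors and DP partners. The lists of other cyclins and kinases, turnover genes and E2F targets held 0. Values are the log2 effect in proliferation minus that in differentiation medium with edgeR's adjusted p. Cdkn1a had a difference of 1.46 (adjusted p = 0.00297). Genes downstream of growth-factor signalling had differences of 1.53 for Dusp6 (0.000592), 1.51 for Egr1 (0.00183), 1.01 for Spry1 (0.0442), 0.96 for Spry4 (0.037), 0.79 for Etv5 (0.0128) and 0.52 for Spry2 (0.0227). The differences were -0.92 for the receptor gene Fgfr2 (0.00319) and -1.12 for E2f8 (0.0269). Each of the 9 was called in proliferation medium, and of them only Dusp6 was called in differentiation medium, in the opposite direction, a call lost in 9 of 15 alternatives. The calls of the difference were kept in all 19 alternatives for Cdkn1a, Dusp6 and Egr1, and that of Fgfr2 was lost with the replicate block (adjusted p = 0.0578). They were lost in 12 of 19 for Spry1, 11 for Spry4, 8 each for Spry2 and E2f8 and 4 for Etv5 (adjusted p up to 0.2, 0.182, 0.145, 0.152 and 0.0927). All 5 were lost without either differentiation vehicle library, those of Spry1, Spry2 and Spry4 also without any 1 differentiation 4HBP library, and that of E2f8 without differentiation 4HBP replicate 2 or 3. Leaving out proliferation 4HBP replicate 2 ended the calls of Spry1, Spry2 and Spry4, 4HBP replicate 1 those of Spry1 and Spry4, vehicle replicate 2 those of all but Etv5, and vehicle replicate 1 that of Spry1.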

How the results depend on the processing

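With 4HBP in proliferation medium, the genes called numbered 1074 and went to 1623 with DESeq2, 18 with limma on log2(CPM+1), 1776 with voom, 651 with the study's thresholds and 2668 with all 11 libraries in 1 fit, and the members called lower went from 1 to 0 with limma, the study's thresholds and the length offset. In differentiation medium they numbered 395 and went to 778 without a filter, 0 with limma (2660 at an unadjusted p under 0.05), 48 with voom, 66 with the study's thresholds, 0 with all 11 libraries in edgeR (644 at an unadjusted p under 0.05) and 37 with the length offset. There the members called lower were 2, with 1 higher, without a filter, and 0 with DESeq2, limma, voom, the study's thresholds, all 11 libraries and the length offset. The study's thresholds left 5217 genes and 4 members lower between the media in vehicle and 5676 genes and 4 members lower under 4HBP, and the length offset left 5 members lower in vehicle. The interaction called 715 genes, 1616 without a filter (1 member higher and 3 lower), 1078 with DESeq2, 264 with limma and 406 with the length offset.

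With a replicate block, the comparisons with 4HBP called 534 genes in proliferation and 745 in differentiation medium (1 member higher and 2 lower), the interaction 156, and those between the media 9399 in vehicle and 9603 under 4HBP. As the numbers do not pair the libraries, this block is no test of the effects.

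Leaving out 1 library in turn gave 107 to 1429 genes and 0 to 1 members lower for 4HBP in proliferation medium, 77 to 288 genes and 0 members lower in differentiation medium, 7261 to 9590 genes with 1 to 2 members higher and 6 to 8 lower between the media in vehicle, 9026 to 11254 genes with 6 to 7 members lower under 4HBP, and 124 to 1100 genes for the interaction.

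Signs changed only for values that were not called. In proliferation medium, Cdkn1b with 4HBP became -0.002 with DESeq2's size factors and with DESeq2, and ranged from -0.054 to 0.051 as single libraries were left out, below 0 without 4HBP replicate 3 or vehicle replicate 1. In differentiation medium, the length offset turned Ccnd3 to 0.08 and Cdk6 to -0.16, and leaving out single libraries gave -0.03 to 0.123 for Cdk6, -0.244 to 0.011 for Cdkn2a and -0.117 to 0.007 for Cdkn1a. Under 4HBP between the media, Cdkn2c became 0.25 with the length offset and ranged from -0.194 to 0.004 as libraries were left out. The interaction became 0.089 for Cdk6 with the length offset and ranged from -0.032 to 0.285 for Ccnd2. Cdk6 and Cdkn2a are limited by depth, with 182 counts or fewer in every library. The causes of these changes were not tested.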
